A study of Mus musculus with 2 samples.

Results

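The miR-669 and miR-297 families are mouse microRNAs (miRNAs) with many near-identical members. They were followed here in exosomes, small vesicles released by cells, from the serum of mice with Lewis lung carcinoma (LLC) tumours. Members were chosen by name, as every miRNA of the array called miR-669 or miR-297 with a letter or arm. There were 26 members, 23 of miR-669 and 3 of miR-297, among 1881 miRNAs. The families were picked on their high ratios of MSC+LLC over LLC in an earlier analysis of these same arrays, so every ratio, count and detection call given for them is a description and carries no test.

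Both groups were 6-week-old female C57BL/6 mice given 1000000 luciferase-expressing LLC cells under the skin. In the MSC+LLC group the cells were mixed with mouse bone marrow mesenchymal stem cells (BMSCs), which had been bought and came from C57BL/6 mice. Serum was taken when the mean tumour volume was 200 mm3. The labels say serum and the text of the study says plasma. The number of mice behind each array and the number of BMSCs are not given in the sources used here. The number of arrays limits the precision, since each group had 1 array, made from 100 ng of total RNA labelled with a single dye (Cy3). The arrays shared a slide and a scan, so array position and group cannot be told apart.

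A mature miRNA is cut from either side of a hairpin, named the 5p and the 3p arm, and pairs with its targets mainly through the seed, bases 2 to 8 from its 5′ end. Most genes of both families lie in a repeat-rich cluster in an intron of Sfmbt2, an imprinted gene of the Polycomb group, and the cluster is known from mouse placenta, trophoblast and embryonic stem cells. Its members are very alike in sequence, so a probe made for a member can also bind its relatives, and the value of a single member is uncertain. In the RefSeq gene table (GRCm38.p6), all 26 members had a gene of their name. Of the 36 genes, 34 lay within Sfmbt2 on chromosome 2, and 24 members had all of their genes there. The exceptions were miR-669n, whose gene lies within Slc30a7 on chromosome 3, and miR-297a-3p, which has 4 genes, 3 in Sfmbt2 and Mir297-1 on chromosome 7. miR-669a-5p had the most genes, 12.

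RefSeq's table of mature sequences (GRCm38.p6) held 1608 of the 1881 miRNAs of the array, and miR-669n was the member among them. It is printed here with 4 miRNAs of the miR-466 and miR-467 families, because their repeat letters differ and so did their signals. None of these 4 has a gene in the cluster, and they lie on chromosomes 13, 3, 11 and 5 in the order printed. They were chosen after their values were seen, and miR-466j and miR-466k, which like miR-669n hold GUGUGU, are not printed. Capitals mark the seed.
miR-669n: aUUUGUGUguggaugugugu
miR-466i-3p: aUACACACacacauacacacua
miR-466q: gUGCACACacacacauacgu
miR-467f: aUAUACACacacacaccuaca
miR-467g: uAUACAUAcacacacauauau
miR-669n lies at chr3:115979905-115979924 on the plus strand and overlaps Slc30a7, a zinc transporter gene. Its sequence holds the letters GUGUGU, and the other 4 hold ACACAC. The motifs were searched on the mature strand. The sequences share no seed with each other, and no other listed miRNA of the array shares a seed with any of them.

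The MSC+LLC array was far dimmer than the LLC array. The 75th percentile of signal, taken over probes that both arrays detected, was 2883 intensity units for LLC against 250.3 for MSC+LLC, an 11.52-fold gap or 3.53 on the log2 scale. The brightness of negative control spots was similar, with 2.09 ± 3.82 (SD, n = 986 spots) against 3.70 ± 3.43 (SD, n = 965 spots). Spike-in RNAs added at hybridization gave a log2 ratio (MSC+LLC over LLC) of 0.04, and those added at labelling gave -1.32. A ratio after scaling therefore states a level relative to the other miRNAs, and signals before scaling are given beside it.

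The data showed a split by arm. Counting a miRNA as detected when more than 50% of the spots of at least 1 of its probes stood well above background, 10 of the 26 members were detected on the LLC array, where 26.7% of all miRNAs were, and 10 on the MSC+LLC array, where 13.7% were. Detection was shared by 6 members, 4 were detected on the LLC array alone, 4 on the MSC+LLC array alone, and 12 on neither. Of the 12 members of the 3p arm, the LLC array detected 2 and the MSC+LLC array 6. Of the 10 members of the 5p arm, the LLC array detected 7 and the MSC+LLC array 3. All 4 members found on the MSC+LLC array alone were 3p, and all 4 found on the LLC array alone were 5p. Over all 1881 miRNAs, 18 were found on the MSC+LLC array alone, 15 of them 3p and 2 of them 5p. The LLC array alone detected 262, of which 136 were 5p and 73 were 3p. Among the other miRNAs outside miR-466 and miR-467, detection was lower in MSC+LLC on both arms, from 153 to 86 of 759 for 3p and from 227 to 99 of 750 for 5p. The members' fall on the 5p arm was shared by these miRNAs, and their rise on the 3p arm was not. The 3p miRNAs of miR-466 and miR-467 also rose, from 4 to 9 detected of 14. The members were picked on high ratios in MSC+LLC, so nothing is read from this contrast.

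miR-669p-3p, which has 2 genes in the cluster, differed most among the members measured on both arrays. Its 4 probes read 13.4 ± 8.53 (SD, n = 7 spots), 22.9 ± 1.30 (n = 5), 25.7 ± 4.69 (n = 7) and 29.8 ± 5.71 (n = 7) intensity units on the LLC array. They read 129.6 ± 22.4 (n = 8), 190.1 ± 18.2 (n = 7), 219.4 ± 23.6 (n = 7) and 267.5 ± 25.1 (n = 7) on the MSC+LLC array, in the same order of probes. Every spot of every probe was brighter on the dimmer array. Before scaling, the 3 probes detected on both arrays were 8.32, 8.55 and 8.99 times as bright in MSC+LLC. The scaled log2 ratio was 6.63 ± 0.15 (SD over spots), a 99.2-fold difference, with the probes between 6.58 and 6.69.

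The other 3p members detected on the MSC+LLC array were not well above background on the LLC array, except miR-669f-3p. The probes of miR-669c-3p read -1.74 ± 4.05 (n = 15 spots) and 3.80 ± 4.48 (n = 15) in LLC, and 28.1 ± 2.97 (n = 14) and 70.2 ± 10.1 (n = 15) in MSC+LLC. Those of miR-669e-3p read 1.60 ± 2.95 (n = 14) and -0.40 ± 3.88 (n = 15) against 29.5 ± 5.61 (n = 15) and 28.1 ± 4.37 (n = 15). In both miRNAs no LLC spot reached the lowest MSC+LLC spot of its probe. The probes of miR-669h-3p read 10.65 ± 5.49 (n = 15) and 17.6 ± 3.14 (n = 13) against 47.0 ± 6.88 (n = 14) and 47.9 ± 4.67 (n = 15), again without overlap. The 4 probes of miR-669a-3-3p ran from -0.27 to 14.5 in LLC and from 18.7 to 25.03 in MSC+LLC, and none of them overlapped. The ratios of these 4 miRNAs therefore have only a lower limit. That limit, the MSC+LLC signal over the lowest signal of a detected probe of the LLC array, or the LLC probe's own signal where higher, after scaling, was at least 26.1-fold for miR-669h-3p, at least 24.4-fold for miR-669c-3p, at least 15.8-fold for miR-669e-3p and at least 12.8-fold for miR-669a-3-3p. On the log2 scale these limits were 4.71, 4.61, 3.98 and 3.68. With no scaling they were 1.18, 1.08, 0.46 and 0.16, and miR-669e-3p and miR-669a-3-3p no longer passed 2-fold. Only limits above 0 were kept, so the sign of a limit is not a result.

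The probes of miR-669f-3p disagreed. The first read 37.5 ± 4.80 (n = 15 spots) in LLC and 51.5 ± 7.77 (n = 15) in MSC+LLC, with overlapping spots. The second read 323 ± 43.3 (n = 15) and 71.2 ± 8.31 (n = 15), 4.54 times as bright on the LLC array and without overlap. After scaling the probes gave 3.98 and 1.34 on the log2 scale, with a mean of 2.66 ± 0.19 (SD over spots), a range far wider than the spread between spots.

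**Figure D1:**
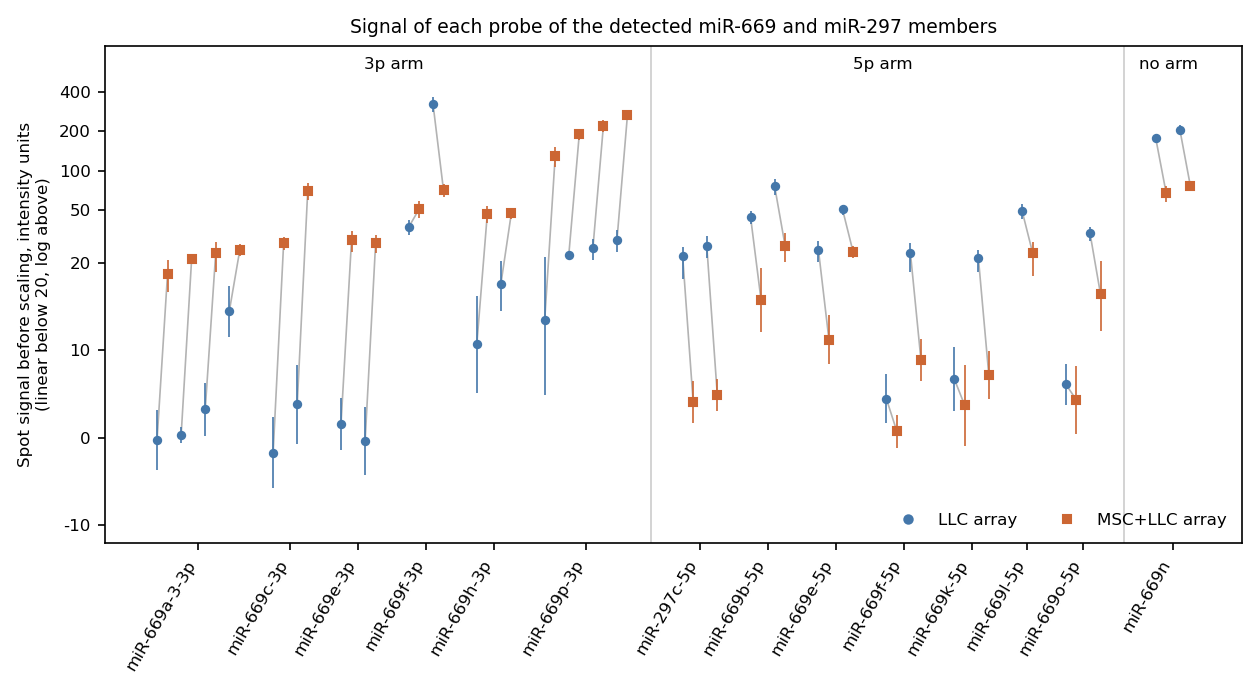
Mean spot signal of each probe (intensity units before scaling, vertical axis linear below 20 and logarithmic above) for the 14 members detected on at least 1 array, grouped by arm. Circles are the LLC array, squares the MSC+LLC array, bars the SD over spots and grey lines join the same probe. Probes of the 3p arm lie higher on the MSC+LLC array apart from the brighter probe of miR-669f-3p, and probes of the 5p arm and of miR-669n lie lower.

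Every 5p member detected had a lower unscaled signal in MSC+LLC. The probes of miR-669b-5p read 44.5 ± 5.06 (n = 15 spots) and 76.1 ± 10.3 (n = 15) in LLC, and 15.7 ± 3.67 (n = 15) and 26.7 ± 6.67 (n = 15) in MSC+LLC. Those of miR-669e-5p read 24.9 ± 4.57 (n = 15) and 50.7 ± 4.27 (n = 15) against 11.2 ± 2.78 (n = 13) and 24.2 ± 2.38 (n = 14). In both miRNAs all LLC spots were above all MSC+LLC spots. The probe of miR-669l-5p read 49.4 ± 6.64 (n = 30) against 23.7 ± 5.21 (n = 30), and its spots overlapped at the edges. Before scaling, the log2 ratios were -1.51, -1.07 and -1.06. After scaling they were 2.02 ± 0.41, 2.46 ± 0.19 and 2.47 ± 0.37 (SD over spots), since the median unscaled log2 ratio over all 240 miRNAs measured on both arrays was lower still, at -3.38.

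The 4 members detected on the LLC array alone were all 5p and close to the detection limit, which was 20.9 intensity units for the lowest detected probe there. miR-297c-5p, the detected member of its family, read 22.3 ± 4.14 (n = 15 spots) and 26.9 ± 5.15 (n = 15) in LLC, and 4.05 ± 2.40 (n = 15) and 4.91 ± 1.83 (n = 14) in MSC+LLC, without overlap. The brighter probes of miR-669f-5p, miR-669k-5p and miR-669o-5p read 23.6, 21.9 and 33.4 in LLC and 8.88, 7.12 and 16.4 in MSC+LLC. Their dimmer probes were detected on neither array. None of the 4 has a ratio or a limit, because after scaling the detection limit of the MSC+LLC array lay above their LLC levels.

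miR-669n, the member outside the cluster and with no arm in its name, gave well-matched probes. They read 177 ± 7.81 (n = 11 spots) and 206 ± 16.2 (n = 15) in LLC, and 67.3 ± 8.92 (n = 15) and 77.0 ± 5.19 (n = 15) in MSC+LLC. All LLC spots were brighter. The log2 ratio was -1.41 before scaling and 2.12 ± 0.13 (SD over spots) after it, with the probes at 2.11 and 2.13. These ratios were close to those of the 5p members and of miR-669f-3p (-0.86 and 2.66) and far from those of miR-669p-3p, a comparison of single values with no test.

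Over the 6 members measured on both arrays the median scaled log2 ratio was 2.46, against 0.12 for all other miRNAs, a difference of 2.34. All 6 were at least 2-fold higher in MSC+LLC, beside 27.1% higher and 11.2% lower among the 240 miRNAs with a signal on both. With lower limits counted, 10 of the 14 members detected on at least 1 array were at least 2-fold higher and 0 lower, beside 16% and 5.38% of the 520 miRNAs detected anywhere. Since these ratios chose the families, nothing is read from the counts. Of the 6 measured on both arrays, the direction of all but miR-669p-3p rests on the scaling. Without it, 1 of the 6 was above 0 and 5 were below, with a median of -1.06. Scaled by all 4 spike-in RNAs, the median was -0.42. That scaling averages the spike-ins of hybridization (log2 ratio 0.04) and of labelling (-1.32), and scaling by either kind alone was not run.

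**Figure D2:**
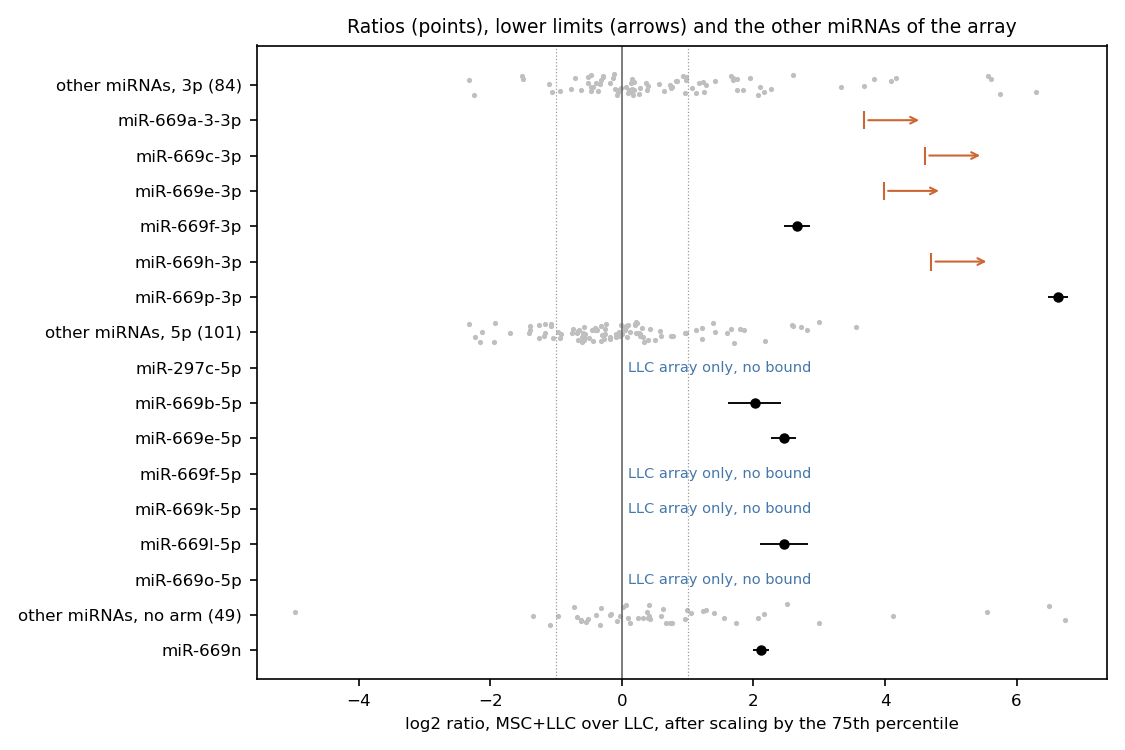
Scaled log2 ratio of MSC+LLC over LLC (horizontal axis) by arm, for the 10 members with a ratio or a lower limit, beside all other miRNAs measured on both arrays (grey points). Black points are ratios with the SD over spots, arrows start at a lower limit, and dotted lines mark 2-fold. The 4 members listed with text have neither. The 3p ratios are 2.66 and 6.63, and the ratios of 3 5p members and miR-669n lie between 2.02 and 2.47.

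The arms also parted before any scaling. Averaged over probes, 15 of the 26 members were brighter on the MSC+LLC array, beside 44.4% of all miRNAs. These were 11 of the 12 3p members, with miR-669f-3p the exception, 1 of the 10 5p members and 3 of the 4 without an arm. The median difference of MSC+LLC less LLC was 8.34 intensity units for 3p members and -9.30 for 5p members. For the other miRNAs outside miR-466 and miR-467 it was 0.18 for 3p, where 398 of 759 were brighter, and -2.22 for 5p, where 269 of 750 were. Neither array detected 600 of these 759 and 521 of these 750, against 6 of 12 and 3 of 10 members, so the medians cover unlike mixes. Among 5p miRNAs measured on both arrays, the median unscaled log2 ratio was -1.07 for the 3 members and -3.76 for the 97 others. With normexp, another background correction, 5 of the 12 3p members and 0 of the 10 5p members were brighter, beside 1.17% of all miRNAs, and the 6 undetected 3p members were no longer among them.

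Those 6 undetected 3p members were all brighter on the MSC+LLC array under the software's own background subtraction, by a median of 6.17 intensity units. Of the 1334 undetected miRNAs outside these families and miR-466 and miR-467, 785 (58.8%) were brighter, by a median of 0.52 over all of them, and the mean of the negative control spots was 2.09 in LLC and 3.70 in MSC+LLC. The mean signals of miR-297a-3p were 1.76 in LLC and 9.97 in MSC+LLC. Those of miR-669d-3p were 0.71 and 9.18, and those of miR-669l-3p 1.65 and 8.99. miR-669b-3p followed with 2.59 and 7.59, while miR-669k-3p (-2.40 and -1.74) and miR-669m-3p (3.25 and 3.73) differed by 0.66 and 0.48, less than the negative controls did. The SD of the negative control spots was 3.82 and 3.43 on the arrays, and no member among these 6 passed the detection rule. The 3 undetected 5p members, miR-297b-5p, miR-669a-5p and miR-669h-5p, lay between -0.41 and 1.16 on both arrays. Of the undetected members without an arm, miR-669i read -0.72 in LLC and 6.08 in MSC+LLC, and miR-669g and miR-669j read at most 1.54.

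**Figure D3:**
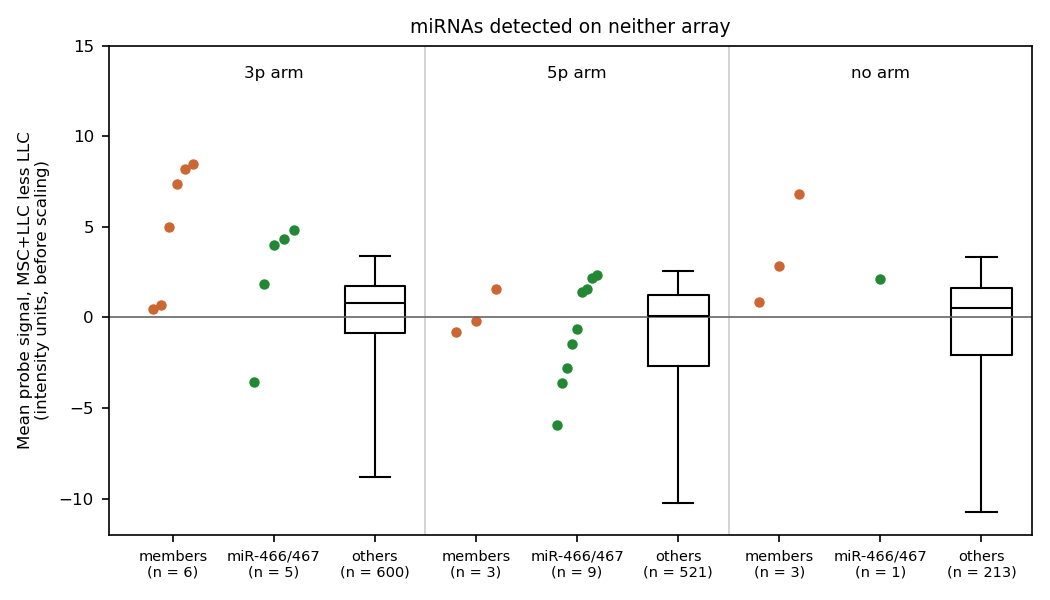
Difference in mean probe signal, MSC+LLC less LLC (intensity units before scaling, vertical axis), for miRNAs detected on neither array, by arm. Points are single members or single miRNAs of miR-466 and miR-467, and boxes show the quartiles of the other miRNAs, with whiskers that leave out 5% at each end. All 6 3p members lie above 0, with a median of 6.17.

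Single probes showed the same split. Of the 34 probes of 3p members, 18 had every MSC+LLC spot above every LLC spot, and 1 had every spot below. Of the 21 probes of 5p members, 0 lay wholly above and 9 wholly below. Of the 9 probes of members without an arm, 0 lay above and 2 below. Over all 4415 probes of the array, 1.81% lay wholly above and 24.9% wholly below. By arm these shares were 3.39% and 18.9% for 3p, 0.166% and 28.2% for 5p, and 1.86% and 31.7% without an arm. Hardly any 5p probe of the whole array lay wholly above, so the 0 of 21 is not particular to the members. Spots of a probe and probes of a miRNA share 1 RNA sample, so these counts describe the arrays and not the mice.

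**Figure D4:**
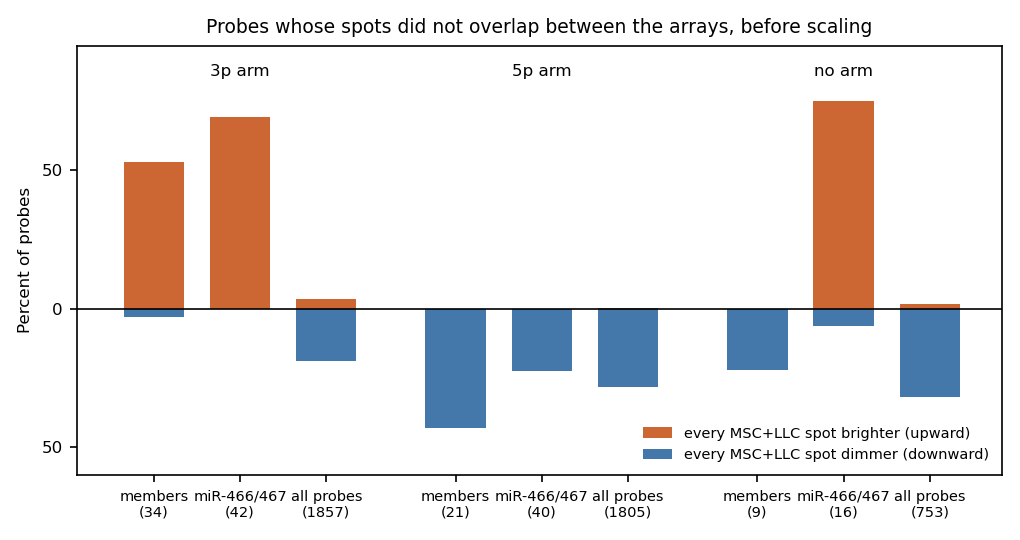
Percent of probes (vertical axis, number of probes in brackets) for which every MSC+LLC spot was brighter than every LLC spot (upward bars) or dimmer (downward bars) before scaling, by arm, for the members, for miR-466 and miR-467, and for all probes. Among 3p probes 18 of 34 member probes were wholly brighter, beside 3.39% of all 3p probes. Among 5p probes 0 of 21 were, beside 0.166% of all 5p probes.

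The miR-466 and miR-467 families were compared as the most similar repeat families. Of their 35 miRNAs, 25 had all of their genes within Sfmbt2 and 7 had none there. Among the 35, the LLC array detected 14 and the MSC+LLC array 17. Their 3p miRNAs went from 4 to 9 detected of 14 and their 5p miRNAs from 6 to 4 of 15. Every spot was brighter on the MSC+LLC array in 29 of 42 3p probes and 0 of 40 5p probes. They differed from the members in miRNAs without an arm, where 12 of 16 of their probes were wholly brighter, against 0 of 9. Their median scaled log2 ratio over 11 miRNAs measured on both arrays was 5.56, and 8 of the 11 stayed above 0 without scaling, against 1 of 6 members. Within Sfmbt2 the median over 5 such miRNAs was 4.17, or 0.65 without scaling, and over the 4 measured with no gene there it was 6.39, or 2.87 without scaling.

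The sequences shown were chosen after their values were seen, so the contrast between them is a description only. Those with ACACAC had the higher unscaled signal in MSC+LLC, and miR-669n, with GUGUGU, the lower. The unscaled log2 ratios were 3.21 for miR-466q, 2.97 for miR-467f and 2.76 for miR-466i-3p, while miR-467g was detected on the MSC+LLC array alone, at least 15.4-fold higher after scaling. ACACAC occurred in 11 of the 1608 mature sequences (0.684%). Of these, 5 were measured on both arrays, 4 of them above 0 unscaled, in a range from -4.23 to 3.21, and 3 of those 4 are the miRNAs printed. Outside miR-466 and miR-467, 7 sequences held it and 2 were measured on both arrays, at 2.04 and -4.23 unscaled. Of the miR-466 miRNAs with GUGUGU, miR-466j was detected on the LLC array alone and miR-466k on neither. GUGUGU occurred in 16 (0.995%), and the 6 measured on both arrays ran from -2.46 to -0.71 unscaled. All 6 were at least 2-fold higher after scaling, with a median log2 ratio of 2.39. Over the whole array, 226 of the 240 miRNAs measured on both arrays lay below 0 unscaled, with a median of -3.38. A motif match describes letters and names no cause. The mature sequences of the other 25 members were not used here, so their letters were not compared.

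Marker miRNAs of other sources were read beside the members. The miR-290 to miR-295 miRNAs belong to embryonic stem cells and trophoblast, where the Sfmbt2 cluster is also active. The list held 10 of them, both arms of miR-290a, miR-291a, miR-292a, miR-294 and miR-295. Of these 10, the LLC array detected 1 (miR-290a-5p) and the MSC+LLC array 0. Single levels ran from -1.08 to 17.2 in LLC and from -2.20 to 3.53 in MSC+LLC, in intensity units, with sums of 45.9 and 5.29. Outside the list, miR-290b-3p and miR-292b-3p were detected on the LLC array alone, at 66.2 and 74.0 intensity units there. The remaining miRNAs of miR-290 to miR-295 were detected on neither array. Of 8 miRNAs common in mesenchymal cells, 6 and 5 were detected. Their summed level before scaling was 6460 and 706.5, and 0 were at least 2-fold higher or lower after scaling. The 4 listed serum and red cell miRNAs were detected on both arrays. Of these, 3 were at least 2-fold higher after scaling, beside 27.1% of the 240 miRNAs measured on both arrays. The other, miR-16-5p, had a log2 ratio of -0.39. Off the list, the red cell miRNAs miR-144-3p and miR-144-5p were lower, each at -2.33. Of 3 leukocyte and platelet miRNAs, 3 and 2 were detected, and miR-142a-3p was at least 2-fold lower after scaling, with a log2 ratio of -2.25. The liver miRNA miR-122-5p was detected on both. The part of any cell source in the members' signals was not tested, and fewer vesicles and less of a miRNA per vesicle cannot be told apart.

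In the deposited log2 table, miRNAs called undetected stand at 1 constant per array, -10.34 for LLC and -6.80 for MSC+LLC. The 11 members undetected on both therefore differ by 3.54 through the constants alone. A further 9 members were measured on both arrays there, with differences of MSC+LLC less LLC from 1.57 to 6.60, and 3 members were on the LLC array alone, all 5p. The 3 on the MSC+LLC array alone, miR-297a-3p, miR-669c-3p and miR-669e-3p, were all 3p.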

How the data were processed

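Serum exosomal RNA of 1 LLC and 1 MSC+LLC sample was hybridized to Agilent 1-colour mouse miRNA arrays. Groups came from the sample titles. Per the file headers the authors used Feature Extraction 11.5.1.1 (the submitters' processing notes name 10.7), which gave the deposited background-subtracted spot intensity on a linear scale and flags (outlier, saturated, well above background; other). The deposited log2 table came from the authors' GeneSpring GX, with settings not given in the sources used here. No column was without a sample (0).

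Outlier spots were left out, 25 of 780 member spots for LLC (3.21%) and 24 for MSC+LLC (3.08%), and 0 were saturated. Kept spots were averaged per probe, arrays were scaled to their 75th percentile over probes detected on both, and log2 ratios of the probes were averaged. The SD over spots of a log2 ratio was propagated from the spot SDs of both arrays to the mean over probes. It leaves out differences between probes. The members had 64 probes. Every member detected on at least 1 array is named, and the rule gave the others by counts and ranges. The 12 undetected members were named as well, after their values were seen. Members, lists and alternatives were chosen with earlier results of these data known. The functions were tested on simulated data. No test was run, since each group has 1 array. R 4.3.3 ran limma 3.58.1 (normexp, offset 50), and Python 3.11.15 the rest (matplotlib 3.10.9, pandas 2.3.3, numpy 2.4.6).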

Additional observations from a re-analysis of the deposited data

How the results depend on the processing

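No paired analysis was possible because LLC and MSC+LLC had 1 array each. Of 127 values of single members under the alternatives, 117 kept their sign and 10 reversed, all by scaling, and miR-669p-3p stayed above 0 under every alternative run. A lower limit was kept only when it was above 0, so a limit could not count as reversed. All 10 reversals were ratios of members measured on both arrays. Scaling by all 4 spike-ins gave log2 ratios of -0.87 for miR-669b-5p, -0.43 for miR-669e-5p, -0.22 for miR-669f-3p, -0.42 for miR-669l-5p and -0.77 for miR-669n, with a median of -0.42 and 4 members at least 2-fold higher. With no scaling they were -1.51, -1.07, -0.86, -1.06 and -1.41 in the same order, with a median of -1.06, 3 members higher and 4 lower. The share of all miRNAs past 2-fold was not counted under either scaling, so nothing is read from these counts. Without scaling, 226 of all 240 miRNAs measured on both arrays lay below 0, with a median of -3.38. The median of 2.46 became 1.25 with the 75th percentile of all probes, 1.71 with quantile normalization, 2.15 in the deposited values and 2.77 when all kept spots had to stand well above background. The difference of 2.34 from the other miRNAs became 1.85 with quantile normalization, 2.53 under that strict detection rule and 1.86 with normexp. Under the strict rule 4 and 0 5p members were detected on the LLC and MSC+LLC arrays, and the deposited values had 4 3p members on the LLC array. Chosen after seeing the data were the alternatives for brightness before scaling, where 2 5p members were brighter with outlier spots kept and 2 with the median of the spots, and 5 3p and 0 5p members with normexp. The cause of these shifts was not tested. Signals near background and the single array per group limit every value here.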
